A study of Mus musculus with 10 samples.

Results

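The genes described here are 10 Ly49 and natural killer (NK) receptor genes: Klra5, Klra17, Klra2, Klrd1, Klrk1, Klrb1b, Klrb1c, Klre1, Nkg7 and Il2rb. They were chosen by name, with the falls of Klra5 and Il2rb already known. Each was read from the probe set that is annotated to it alone. All 10 were measured, out of 19938 genes on the array, and each had 1 such probe set.

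RNA of splenic cDC1s, the dendritic cell subset best known for cross-presenting antigen to CD8 T cells, was hybridised to 10 Affymetrix arrays. By their labels, 2 arrays came from mice lacking Zeb2 and Id2 (Zeb2 Id2 DKO), 2 from mice lacking Nfil3 and Zeb2 (Nfil3 Zeb2 DKO), 3 from mice lacking Zeb2 alone (Zeb2 KO) and 3 from WT mice. The 3 mutant genotypes thus share the loss of Zeb2. The sources used here do not give the strain, age, sex, Cre line or other means of deletion, the gate that defined the cells or any pooling of animals. Since the labels do not say that replicates are separate animals, the spread behind each p-value may be technical.

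NK receptors of the C-type lectin family are encoded side by side in the NK gene complex. Ly49 receptors (the Klra genes) and the CD94/NKG2 receptors (Klrd1 with the Klrc genes) mostly read MHC class I molecules on other cells, NKG2D (Klrk1) reads stress-induced ligands, and the NKR-P1 receptors (the Klrb1 genes) read lectin-like Clr proteins. Inhibitory members carry a phosphatase-recruiting motif in the cytoplasmic tail, and activating members signal through the adaptors DAP10 and DAP12. Dendritic cells carry some of these receptors as well, and NK cells depend on both Id2 and Nfil3 for their development. The number of Ly49 genes differs between inbred mouse strains.

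Values are log2 of array intensity. The median over all genes lay between 6.44 and 6.55 log2 on the 10 arrays. Intensities of different probe sets are not comparable as levels, so differences are read within each gene across arrays. Words such as high, dim or under the array median, and sums over a list, describe probe set signal and not RNA amount. Limma fitted 1 mean for each genotype to all genes on all 10 arrays, and a gene was called changed at a Benjamini-Hochberg adjusted p under 0.05. Every adjusted p below is from limma, and brackets hold 95% confidence intervals of the log2 fold change. Comparisons that involve the same genotype share its arrays.

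As a check of the labels, Id2 stood at 5.01 and 4.98 log2 in Zeb2 Id2 DKO, against 10.15, 10.32 and 10.43 in WT. Nfil3 stood at 6.20 and 7.09 in Nfil3 Zeb2 DKO, against 9.98, 10.77 and 10.68 in WT. Zeb2 read 5.40 to 6.82 in the 7 arrays labelled as lacking it and 5.93 to 6.30 in WT, and was not lower. The sources used here do not say whether its probe set lies in the deleted part, so this probe set does not check those labels. The cDC1 markers Xcr1 (11.36 to 11.78) and Clec9a (11.60 to 11.96) were high on every array. Of 10 measured cDC1 markers, Cadm1 was called lower in Zeb2 Id2 DKO against WT (1.43% of all genes called), Zeb2 KO (0.497%) and Nfil3 Zeb2 DKO (0.792%). Against WT, 6 of the 10 were positive and 4 negative in Zeb2 Id2 DKO, and 4 had an unadjusted p under 0.05, beside 10.2% of all genes. Zeb2 KO replicate 3 stood apart, with correlations to its group down to 0.986 against at least 0.993 within the other groups. Neutrophil markers differed between groups: the summed intensity of 8 of them was 5556 and 15477 in Zeb2 Id2 DKO, 2591 and 4347 in Nfil3 Zeb2 DKO, 6976 to 16047 in Zeb2 KO and 1298 to 1725 in WT, and their part in the results below was not tested.

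Klra5 and Il2rb were lower in cDC1s lacking Zeb2 and Id2 than in WT cDC1s, and the other 8 genes passed the test in none of the 6 comparisons. Klra5 fell 3.69-fold and Il2rb 1.94-fold against WT. Il2rb was also 2.98-fold lower in Zeb2 Id2 DKO than in Nfil3 Zeb2 DKO. So 2 of 10 members were called in Zeb2 Id2 DKO against WT, where 1.43% of all genes were called and 0.557% were called lower. Against Nfil3 Zeb2 DKO, 1 of 10 was called in Zeb2 Id2 DKO (0.792% of all genes, 0.211% lower). The members were chosen with these falls known, so the counts are a description. In a bulk sample, fewer cells that carry a gene and less RNA per cell cannot be told apart.

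**Figure D1:**
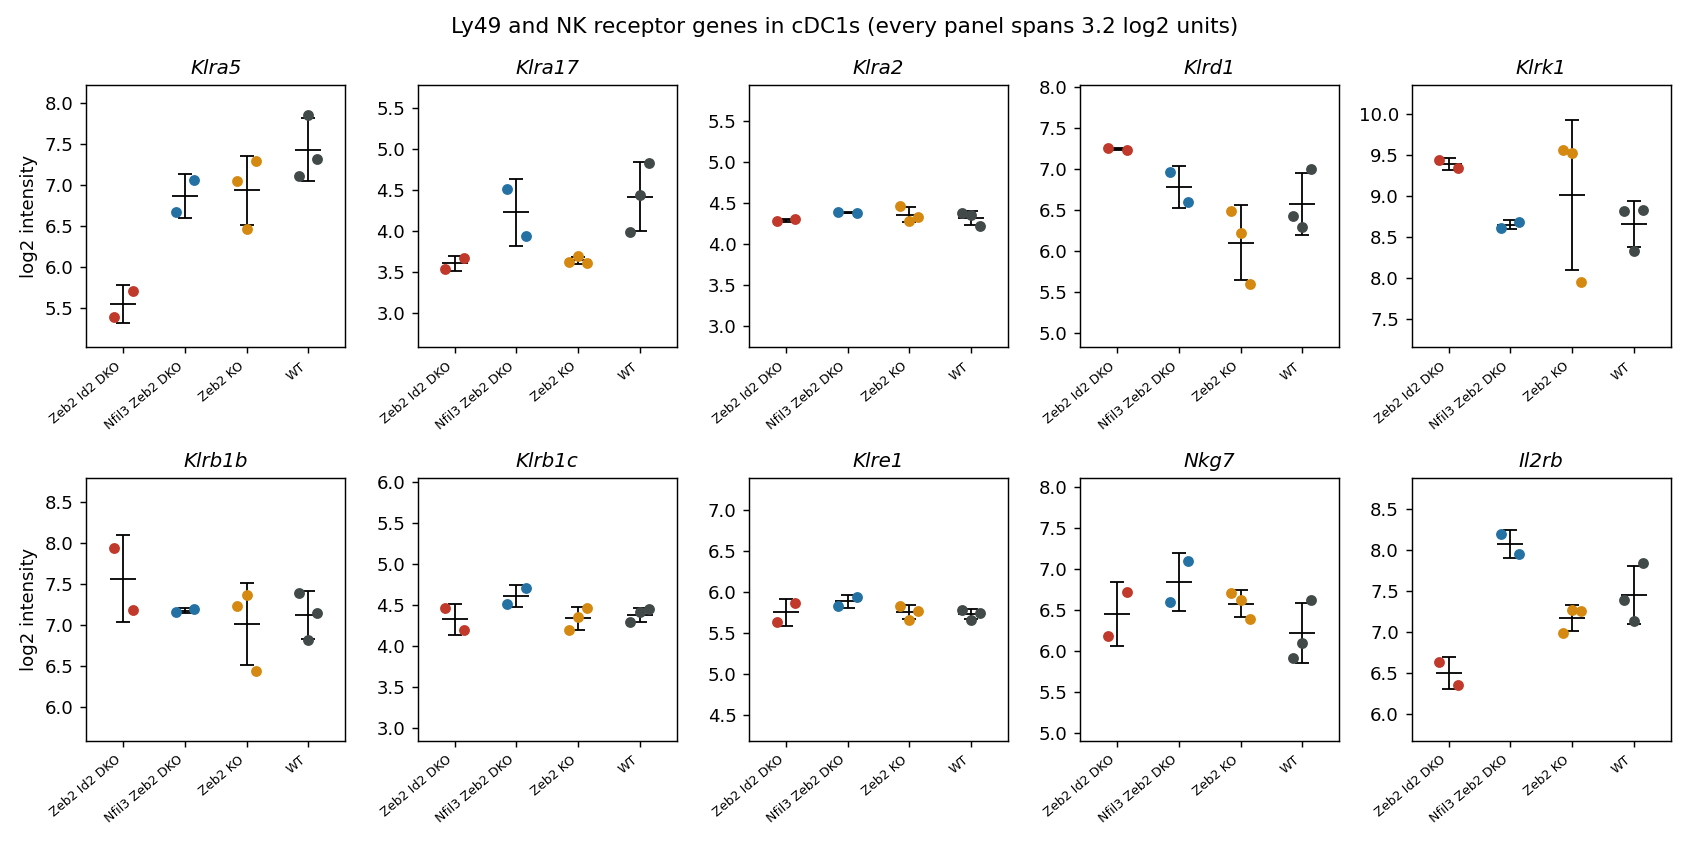
Log2 intensity (vertical axis, each panel on its own range of 3.2 log2 units) of the 10 genes in every array, by genotype. Points are arrays, and bars are means with SD (n = 2, 2, 3 and 3). The Zeb2 Id2 DKO arrays lie below all others for Klra5 (5.39 and 5.71) and Il2rb (6.64 and 6.36), while Klra2, Klrb1c and Klre1 lie within narrow ranges.

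Klra5 encodes Ly49E, an inhibitory Ly49 receptor known from fetal and early NK cells. It read 5.39 and 5.71 log2 in Zeb2 Id2 DKO, 6.68 and 7.06 in Nfil3 Zeb2 DKO, 7.05, 6.47 and 7.29 in Zeb2 KO, and 7.11, 7.86 and 7.32 in WT. Both Zeb2 Id2 DKO arrays lay below all 8 other arrays, whose ranges overlapped between Nfil3 Zeb2 DKO and Zeb2 KO and between Zeb2 KO and WT. The difference between Zeb2 Id2 DKO (5.55 ± 0.23, SD, n = 2) and WT (7.43 ± 0.38, SD, n = 3) was -1.88 log2 [-2.45 to -1.31], adjusted p = 0.00653. That call was lost without Zeb2 Id2 DKO replicate 1 (log2 -1.72, adjusted p = 0.0860), a fit in which the remaining array is assumed to vary like the other groups.

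Against the other mutant genotypes the fall of Klra5 did not pass. Its log2 difference was -1.39 [-1.96 to -0.81] in Zeb2 Id2 DKO against Zeb2 KO (adjusted p = 0.0524) and -1.32 [-1.95 to -0.69] against Nfil3 Zeb2 DKO (adjusted p = 0.0676). The first of these passed without WT replicate 2 (adjusted p = 0.0384) or Zeb2 KO replicate 2 (0.0256), and the second without Zeb2 KO replicate 2 (0.0379) or 3 (0.0193) or when only the arrays of both genotypes were fitted (0.0057). The Klra5 difference was -0.50 [-1.01 to 0.02] in Zeb2 KO against WT (adjusted p = 0.689) and -0.56 [-1.14 to 0.01] in Nfil3 Zeb2 DKO against WT (adjusted p = 1.0). In order of level, the genotypes ran Zeb2 Id2 DKO, Nfil3 Zeb2 DKO, Zeb2 KO and WT from low to high, and no pair of neighbours in that order passed the test.

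Klra17 encodes Ly49Q, an inhibitory receptor best known from plasmacytoid dendritic cells. It read 3.54 and 3.67 log2 in Zeb2 Id2 DKO, 4.52 and 3.94 in Nfil3 Zeb2 DKO, 3.62, 3.69 and 3.62 in Zeb2 KO, and 3.99, 4.44 and 4.82 in WT. The Zeb2 Id2 DKO and Zeb2 KO arrays all lay below every WT array, and WT itself was spread out (SD 0.42 log2). The differences of Klra17 were -0.81 [-1.29 to -0.33] in Zeb2 Id2 DKO against WT (adjusted p = 0.123) and -0.78 [-1.21 to -0.35] in Zeb2 KO against WT (adjusted p = 0.326). The first passed without WT replicate 1 (log2 -1.03, adjusted p = 0.0297). All these intensities lie under the array median. The summed intensity of 9 markers of plasmacytoid dendritic cells was 4835 to 4921 in Zeb2 Id2 DKO, 2985 to 3187 in Nfil3 Zeb2 DKO, 2366 to 3278 in Zeb2 KO and 2948 to 3170 in WT. In Zeb2 Id2 DKO against WT, 6 of the 9 were positive and 3 negative. Siglech, Upb1 and Bst2 were called higher, where 1.43% of all genes were called. The part of plasmacytoid dendritic cell RNA in the Klra17 values was not tested.

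Klra2 encodes Ly49B, a Ly49 receptor known from myeloid cells. It read 4.27 and 4.30 log2 in Zeb2 Id2 DKO, 4.39 and 4.38 in Nfil3 Zeb2 DKO, 4.46, 4.29 and 4.33 in Zeb2 KO and 4.38, 4.36 and 4.22 in WT. Its largest difference in any of the 6 comparisons was -0.09 [-0.30 to 0.12], in Zeb2 Id2 DKO against Nfil3 Zeb2 DKO.

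The upstream sequences of these 3 Ly49 members are shown as a description. Klra5 was called and Klra17 and Klra2 were not, though Klra17 passed without WT replicate 1. Any link between these sequences and the levels was not tested. The windows hold the 250 bases before the annotated start, from RefSeq on build GRCm38.p6, all on the minus strand and written 5′ to 3′. Capitals mark CANNTG, the E-box that E proteins bind and from which Id2 withholds them.
Klra5 (chr6:129913225-129913474): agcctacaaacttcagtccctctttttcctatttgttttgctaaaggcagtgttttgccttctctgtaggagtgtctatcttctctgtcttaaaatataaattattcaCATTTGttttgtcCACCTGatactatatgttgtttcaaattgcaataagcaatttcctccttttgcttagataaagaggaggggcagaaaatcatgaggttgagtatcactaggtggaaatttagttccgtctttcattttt
Klra17 (chr6:129876673-129876922): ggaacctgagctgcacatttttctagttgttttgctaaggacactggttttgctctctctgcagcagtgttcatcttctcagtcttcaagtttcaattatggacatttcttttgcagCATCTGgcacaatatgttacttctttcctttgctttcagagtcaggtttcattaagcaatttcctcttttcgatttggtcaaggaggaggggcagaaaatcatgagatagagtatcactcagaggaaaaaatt
Klra2 (chr6:131247363-131247612): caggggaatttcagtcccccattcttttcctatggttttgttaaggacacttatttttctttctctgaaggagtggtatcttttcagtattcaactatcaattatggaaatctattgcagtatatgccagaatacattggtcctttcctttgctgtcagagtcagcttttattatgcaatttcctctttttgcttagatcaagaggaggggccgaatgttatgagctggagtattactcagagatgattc
In global alignments the Klra5 window had 70.4% identity with that of Klra17 and 65.6% with that of Klra2, and the windows of Klra17 and Klra2 to 76.4%. Klra5 holds 2 matches to CANNTG, the CATTTG that begins 142 bases before the start and the CACCTG that begins 129 bases before it. Klra17 holds 1, a CATCTG that begins 133 bases before the start, and Klra2 holds 0. A CANNTG match on either strand is found in 66.2% of 32851 windows of this length. CACCTG or its reverse complement CAGGTG, which are themselves CANNTG matches and the E-box form that Zeb2 is known to bind, is found in 17.2%. A match is a description of the letters and not of binding. RefSeq promoters were matched for 8 of the 10 members, all but Klrd1 and Il2rb. Among the other matched members, Nkg7 holds 2 matches to CANNTG, Klrk1 and Klrb1c hold 1 each, Klre1 holds 1 in each window and Klrb1b holds 0. Their log2 differences in Zeb2 Id2 DKO against WT were 0.24 (Nkg7), 0.73 (Klrk1), -0.06 (Klrb1c), 0.02 (Klre1) and 0.45 (Klrb1b), and none was called.

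Ly49 transcripts resemble each other closely, so a probe set can read more than its named gene. Beside the single-gene probe sets, 4 probe sets on the array name several Ly49 genes each, and Klra5 is among the names on 2 of them. The probe set that names 7 genes, Klra5 among them, read 4.13 and 3.93 log2 in Zeb2 Id2 DKO, 4.54 and 5.10 in Nfil3 Zeb2 DKO, 4.89, 4.58 and 4.63 in Zeb2 KO, and 5.04, 5.36 and 5.21 in WT. Against WT it fell in the Zeb2 Id2 DKO arrays (log2 -1.18 [-1.54 to -0.81], adjusted p = 0.00678). The probe set that names 5 genes, without Klra5, fell likewise (log2 -1.08, adjusted p = 0.00678). Both calls were lost without Zeb2 Id2 DKO replicate 2 (adjusted p = 0.104 and 0.107). The probe set that names 3 genes, Klra5 among them, had a log2 difference of -0.78 (adjusted p = 0.203), and the one that names 6 had -0.21 (adjusted p = 0.495).

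Of 20 further genes listed for the NK gene complex and its receptor families, 15 had a single-gene probe set. Against WT, 2 of these 15 fell in Zeb2 Id2 DKO and 0 rose, beside 1.43% of all genes called, and their median log2 difference was -0.08 against -0.01 over all genes. Klra3, which encodes the MHC class I receptor Ly49C, read 6.73 and 6.92 log2 in Zeb2 Id2 DKO against 7.52, 7.66 and 7.52 in WT (log2 -0.74, adjusted p = 0.0256). Klri1, which encodes a partner chain of the Klre1 product, read 7.90 and 7.91 in Zeb2 Id2 DKO against 8.70, 8.79 and 8.98 in WT (log2 -0.92, adjusted p = 0.0499).

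The calls of Klra3 and Klri1 did not hold in every fit. Klra3 lost its call on leaving out Zeb2 Id2 DKO replicate 1 (adjusted p = 0.276) or 2 (0.128), or WT replicate 2 (0.107) or 3 (0.0798). Klri1 lost it in 8 of 10 fits with an array left out (adjusted p up to 0.328), with the mean of a gene's probe sets (0.0514) and with an offset of 16 added before the log (0.0777). Klri1 was also low in Zeb2 KO, at 8.30, 8.16 and 7.57 log2, where its difference from WT did not pass (log2 -0.81, adjusted p = 0.212). Limma called 0 of these 15 genes in the other 5 comparisons, in which 1 to 4 had an unadjusted p under 0.05.

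**Figure D2:**
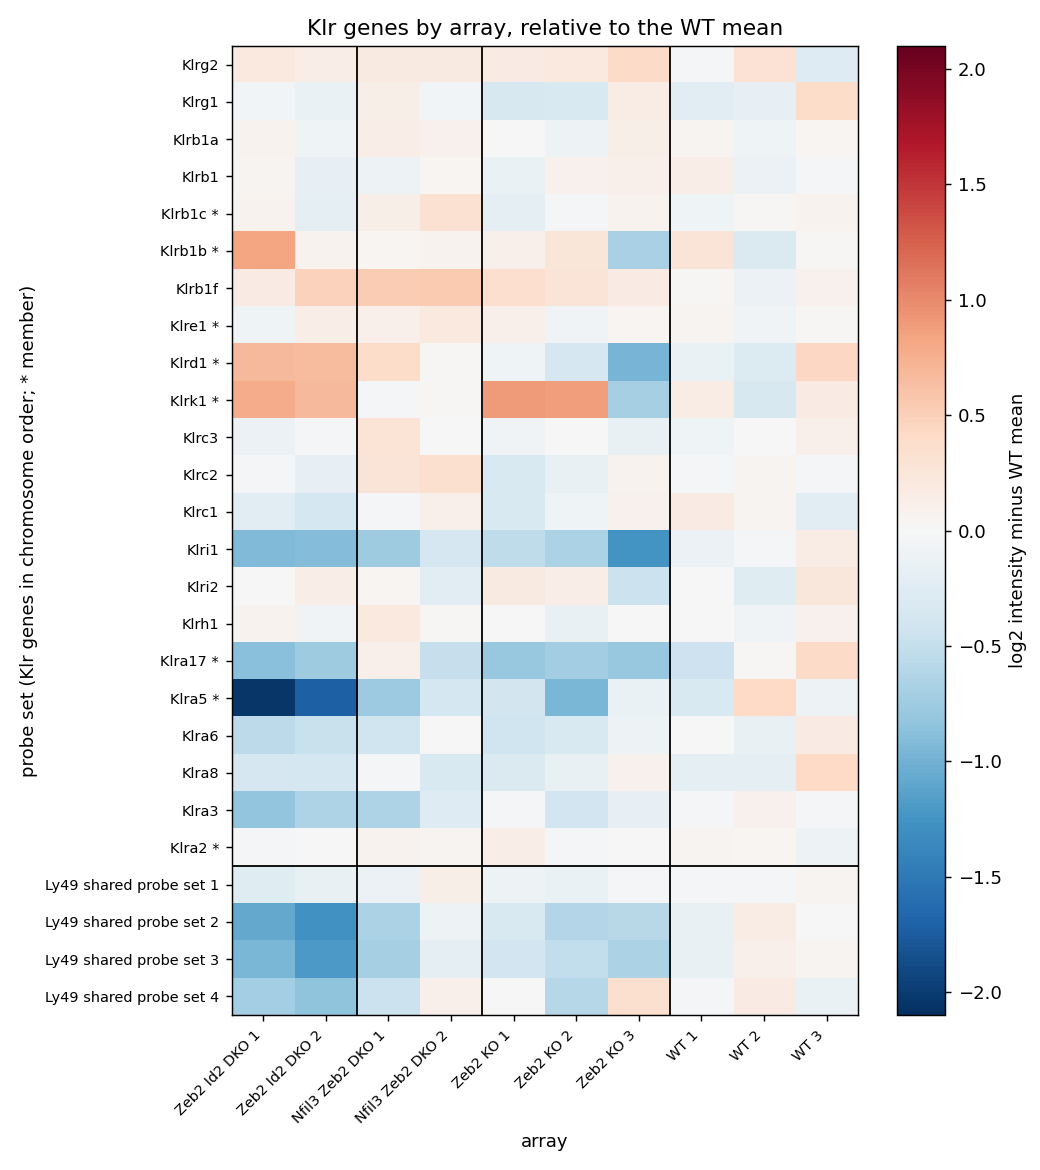
Log2 intensity minus the WT mean (colour) of every single-gene Klr probe set of the listed genes, in chromosome order (rows, members starred), and of the 4 several-gene Ly49 probe sets (bottom rows), in each array (columns, Zeb2 Id2 DKO first, WT last). Klra5 shows the deepest fall in the Zeb2 Id2 DKO columns, Klra3 and Klri1 are lower there too, and Klrd1 and Klrk1 are higher.

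On chromosome 6 the Klr genes run from the Klrb1 genes through Klre1, Klrd1 and Klrk1 to the Klra genes, with Klra17 and Klra5 next to each other. Klrd1 and Klrk1 are neighbours in this order, and in the 3 comparisons of Zeb2 Id2 DKO their differences were positive where that of Klra5 was negative. Klrd1 encodes CD94, the chain that pairs with NKG2 receptors to read Qa-1. It read 7.26 and 7.23 log2 in Zeb2 Id2 DKO, 6.96 and 6.61 in Nfil3 Zeb2 DKO, 6.49, 6.23 and 5.60 in Zeb2 KO, and 6.43, 6.29 and 7.0 in WT. The Zeb2 Id2 DKO arrays were the highest for this gene, and Zeb2 KO replicate 3 was the lowest. The Klrd1 difference was 0.67 [0.10 to 1.24] against WT (adjusted p = 0.358) and 1.14 [0.57 to 1.71] against Zeb2 KO (adjusted p = 0.121), and neither passed.

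Klrk1 encodes NKG2D, the activating receptor for stress-induced ligands. It read 9.44 and 9.34 log2 in Zeb2 Id2 DKO, 8.61 and 8.68 in Nfil3 Zeb2 DKO, 9.55, 9.52 and 7.95 in Zeb2 KO, and 8.81, 8.32 and 8.82 in WT. Zeb2 Id2 DKO and Zeb2 KO replicates 1 and 2 lay above every WT and Nfil3 Zeb2 DKO array, while Zeb2 KO replicate 3 was the lowest of all 10. Over all arrays no difference of Klrk1 passed (0.73 [-0.13 to 1.6] in Zeb2 Id2 DKO against WT, adjusted p = 0.613). The difference of Klrk1 in Zeb2 KO against WT was 0.35 (adjusted p = 0.902).

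Whether Klrk1 passed turned on a single array, in part through the spread that it adds to the fit. Without Zeb2 KO replicate 3 the log2 difference of Klrk1 was 0.88 in Zeb2 KO against WT (adjusted p = 0.0198), 0.73 in Zeb2 Id2 DKO against WT (0.0134) and 0.74 in Zeb2 Id2 DKO against Nfil3 Zeb2 DKO (0.0233). It was -0.89 in Nfil3 Zeb2 DKO against Zeb2 KO (0.0344) without that array. The comparisons of Zeb2 Id2 DKO with WT and with Nfil3 Zeb2 DKO hold no Zeb2 KO array. There it enters only the shared estimate of the spread, and the log2 differences were the same with it. The SD of Klrk1 was 0.92 log2 in Zeb2 KO, 0.29 in WT, 0.07 in Zeb2 Id2 DKO and 0.05 in Nfil3 Zeb2 DKO. When only the arrays of both genotypes were fitted, Klrk1 also passed in Zeb2 Id2 DKO against WT (adjusted p = 0.0488) and against Nfil3 Zeb2 DKO (0.00545).

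Klre1 encodes a chain that pairs with the Klri1 or Klri2 products. It read 5.64 and 5.87 log2 in Zeb2 Id2 DKO, 5.83 and 5.94 in Nfil3 Zeb2 DKO, 5.83, 5.66 and 5.77 in Zeb2 KO, and 5.78, 5.66 and 5.75 in WT. Its difference in Zeb2 Id2 DKO against WT was 0.02 [-0.19 to 0.24]. The 4 genotypes overlapped except that both Nfil3 Zeb2 DKO arrays lay above the WT arrays.

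Klrb1b encodes the inhibitory receptor NKR-P1B, which binds the Clec2d product. It read 7.95 and 7.19 log2 in Zeb2 Id2 DKO, 7.16 and 7.20 in Nfil3 Zeb2 DKO, 7.23, 7.37 and 6.44 in Zeb2 KO, and 7.40, 6.82 and 7.15 in WT. Its high value in Zeb2 Id2 DKO rested on replicate 1, and its low value in Zeb2 KO on replicate 3. Klrb1c, which encodes an activating NKR-P1 receptor widely used as an NK cell marker, read 4.46 and 4.19 in Zeb2 Id2 DKO, 4.51 and 4.70 in Nfil3 Zeb2 DKO, 4.19, 4.36 and 4.46 in Zeb2 KO, and 4.29, 4.41 and 4.45 in WT. It was dim in every genotype, and its difference in Zeb2 Id2 DKO against WT was -0.06 [-0.31 to 0.20].

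Nkg7 encodes a membrane protein of cytotoxic granules. It read 6.18 and 6.73 log2 in Zeb2 Id2 DKO, 6.59 and 7.10 in Nfil3 Zeb2 DKO, 6.71, 6.63 and 6.39 in Zeb2 KO, and 5.92, 6.10 and 6.62 in WT. All genotypes overlapped with WT. The difference of Nkg7 in Nfil3 Zeb2 DKO against WT was 0.63 [0.12 to 1.14], which did not pass (adjusted p = 1.0).

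Il2rb encodes CD122, the signalling chain shared by the receptors of IL-2 and IL-15. It read 6.64 and 6.36 log2 in Zeb2 Id2 DKO, 8.19 and 7.95 in Nfil3 Zeb2 DKO, 6.99, 7.27 and 7.25 in Zeb2 KO, and 7.39, 7.13 and 7.83 in WT. Both Zeb2 Id2 DKO arrays were the lowest of all 10 and both Nfil3 Zeb2 DKO arrays the highest, with Zeb2 KO and WT overlapping between them. Zeb2 Id2 DKO (6.5 ± 0.20, SD, n = 2) lay 0.96 log2 under WT (7.45 ± 0.35, SD, n = 3), a difference of -0.96 [-1.37 to -0.55], adjusted p = 0.0328. The difference from Nfil3 Zeb2 DKO (8.07 ± 0.17, SD, n = 2) was -1.57 [-2.02 to -1.12], adjusted p = 0.00618.

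The call of Il2rb against WT was the less stable one. It did not hold in 6 of 10 fits with an array left out: Zeb2 Id2 DKO replicate 1 (adjusted p = 0.124) or 2 (0.332), Nfil3 Zeb2 DKO replicate 1 or 2 (0.0568 each), and WT replicate 1 (0.0614) or 3 (0.0749). It did not hold either with an offset of 16 added before the log (adjusted p = 0.0657). The call against Nfil3 Zeb2 DKO was lost without Nfil3 Zeb2 DKO replicate 1 (adjusted p = 0.102) or Zeb2 Id2 DKO replicate 2 (0.0724). Il2rb differed by -0.67 in Zeb2 Id2 DKO against Zeb2 KO (adjusted p = 0.246), by 0.90 in Nfil3 Zeb2 DKO against Zeb2 KO (0.374), by 0.62 in Nfil3 Zeb2 DKO against WT (0.942) and by -0.28 in Zeb2 KO against WT (0.791). In order of level the genotypes ran Zeb2 Id2 DKO, Zeb2 KO, WT and Nfil3 Zeb2 DKO from low to high, and no pair of neighbours in that order passed.

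Genes known from NK cells were among those that followed Il2rb. The 5 genes whose log2 intensity followed Il2rb most closely over the 10 arrays were Txk (Pearson r = 0.95), Ncr1 (0.93), Ctsw (0.93), Cd96 (0.90) and Ctla2a (0.90), among 917 genes with an SD of at least 0.3. These correlations describe arrays that share genotypes and carry no test. Ncr1, the NKp46 receptor that defines NK cells, read 4.95 and 4.79 log2 in Zeb2 Id2 DKO, 5.80 and 5.81 in Nfil3 Zeb2 DKO, 5.06, 5.06 and 5.39 in Zeb2 KO, and 5.27, 4.89 and 5.68 in WT. Txk, a Tec family kinase of T and NK cells, fell in Zeb2 Id2 DKO against Nfil3 Zeb2 DKO (log2 -0.78, adjusted p = 0.0335), a call lost on leaving out WT replicate 2 or any array of these 2 genotypes (adjusted p up to 0.286), after quantile normalization (0.0554) and with the offset (0.0547). Cd96 (log2 -0.91, adjusted p = 0.0390) and Ctla2a (log2 -1.31, adjusted p = 0.0281) were also called in Zeb2 Id2 DKO against Nfil3 Zeb2 DKO. Against WT, Ctla2a was called too (log2 -1.01, adjusted p = 0.0412). The calls of Cd96 and Ctla2a were not followed in other fits. Txk, Cd96 and Ctla2a were picked by their likeness to Il2rb, so their falls are not independent of that of Il2rb.

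Across the whole list of 14 measured NK cell markers, 12 had negative differences in Zeb2 Id2 DKO against WT (median log2 -0.28 against -0.01 over all genes). Against Nfil3 Zeb2 DKO, 13 were negative in Zeb2 Id2 DKO (median -0.30 against -0.03), 8 had an unadjusted p under 0.05 beside 11.5% of all genes, and Txk alone was called. In Zeb2 KO against WT 11 were negative (median -0.15 against 0.00), and in Nfil3 Zeb2 DKO against WT 12 were positive (median 0.14 against 0.01). Their summed intensity was 2347 and 2363 in Zeb2 Id2 DKO, 2894 and 3170 in Nfil3 Zeb2 DKO, 2019 to 2405 in Zeb2 KO and 2668 to 2854 in WT. Against WT limma called 0 of the 14, and 5 had an unadjusted p under 0.05 in Zeb2 Id2 DKO (10.2% of all genes), 3 in Nfil3 Zeb2 DKO (4.16%) and 3 in Zeb2 KO (7.39%). The defining markers Eomes (5.11 to 5.70 log2), Ncr1 (4.79 to 5.81) and Gzma (4.51 to 5.67) lay under the array median on every array, and Prf1 read 6.40 to 6.82. The part of NK cell RNA in the Il2rb result was not tested.

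T cell markers also differed in the comparisons where Il2rb was called. Of 11 measured, Cd3d, Cd3g and Lat fell and Cd6 rose in Zeb2 Id2 DKO against WT (median log2 -0.35, and 1.43% of all genes called). Of the 11, 9 had negative differences there and 10 had an unadjusted p under 0.05, beside 10.2% of all genes. Against Nfil3 Zeb2 DKO, Cd3d and Cd3g fell and Cd6 rose in Zeb2 Id2 DKO (median log2 -0.45, and 0.792% of all genes called). Again 9 of the 11 were negative, and 8 had an unadjusted p under 0.05, beside 11.5% of all genes. The summed intensity of the 11 was 1436 and 1551 in Zeb2 Id2 DKO, 1591 and 1669 in Nfil3 Zeb2 DKO, 1257 to 1370 in Zeb2 KO and 1350 to 1459 in WT. In that sum, which weights bright probe sets and includes Cd6, Zeb2 Id2 DKO overlapped WT. The mean log2 intensity of the 11 was 6.54 in both Zeb2 Id2 DKO arrays, 6.90 and 6.97 in Nfil3 Zeb2 DKO, 6.53 to 6.69 in Zeb2 KO and 6.73 to 6.85 in WT. Cd3g read 5.76 and 6.15 log2 in Zeb2 Id2 DKO, 7.38 and 7.16 in Nfil3 Zeb2 DKO, 6.32, 6.57 and 6.54 in Zeb2 KO, and 6.68, 7.10 and 7.03 in WT. Il2rb is carried by T cells too, and the part of T cell RNA was not tested.

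**Figure D3:**
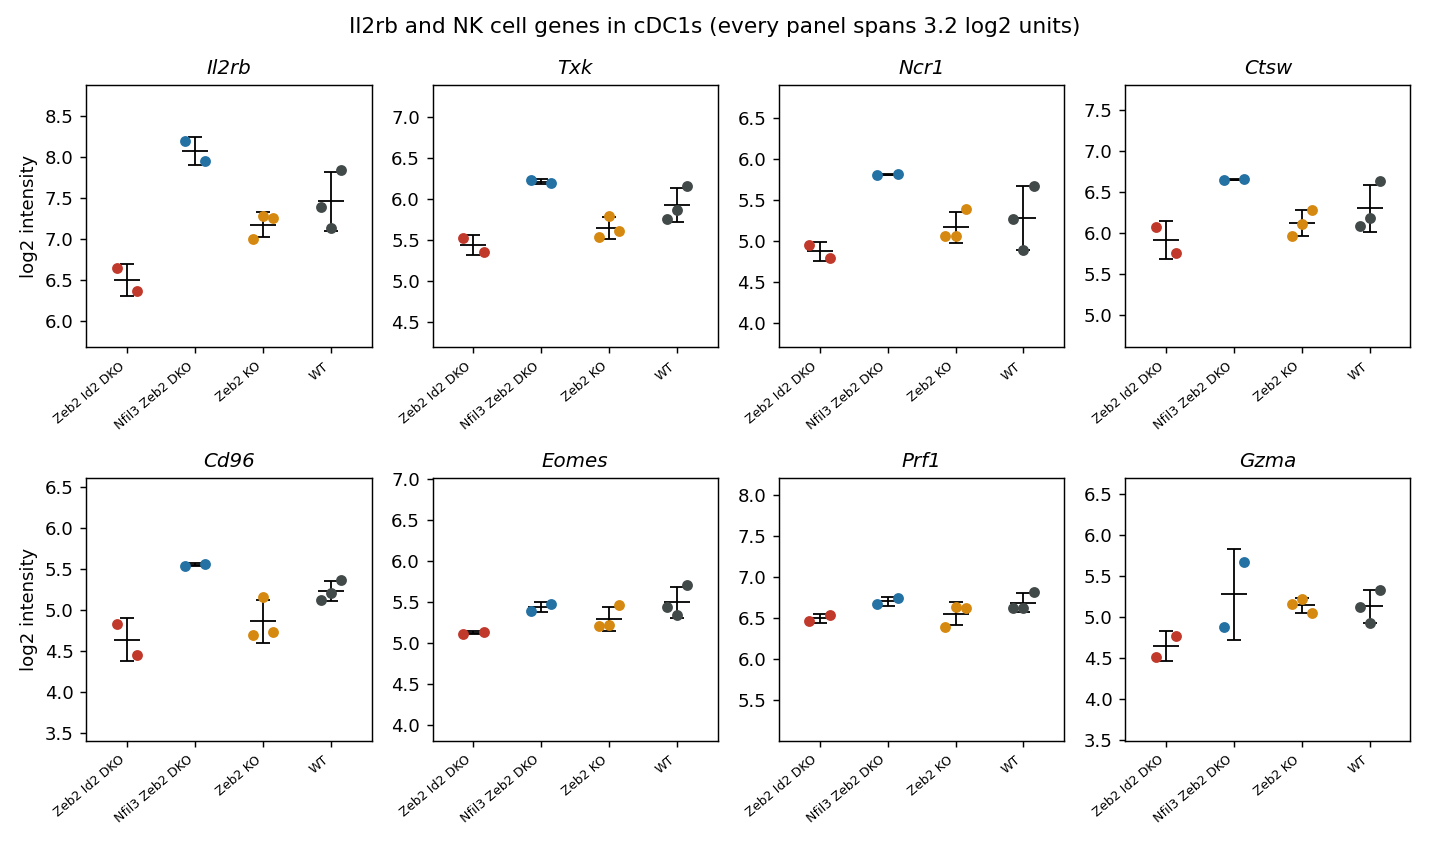
Log2 intensity (vertical axis, each panel on its own range of 3.2 log2 units) of Il2rb, of 4 genes that followed it most closely (Txk, Ncr1, Ctsw and Cd96) and of 3 further NK cell genes (Eomes, Prf1 and Gzma), by genotype. Points are arrays and bars are means with SD (n = 2, 2, 3 and 3). In the panels of Il2rb, Txk, Ncr1, Ctsw and Cd96 the Nfil3 Zeb2 DKO mean is the highest and the Zeb2 Id2 DKO mean the lowest. Txk, Ncr1, Ctsw and Cd96 were picked by their likeness to Il2rb on these arrays, so this shared order reflects that choice.

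The genes that followed Klra5 most closely were others. They were Ocstamp (Pearson r = 0.97), Fzd1 (0.96), Cd81 (0.95), St6gal1 (0.93) and Ccl2 (0.93), over the same 10 arrays and 917 genes. None of them is on the NK or T cell marker lists. Since they were picked by their likeness to Klra5 on these arrays, their values are a description with no test. Ocstamp, a membrane protein of osteoclast fusion, averaged 8.10 ± 0.23 log2 in Zeb2 Id2 DKO against 9.43 ± 0.21 in WT (SD, n = 2 and 3). The tetraspanin gene Cd81 averaged 10.80 ± 0.05 in Zeb2 Id2 DKO against 11.51 ± 0.17 in WT (SD, n = 2 and 3). The chemokine gene Ccl2 read 6.86 and 7.35 in Zeb2 Id2 DKO against 8.46, 8.89 and 8.56 in WT. Of 8 red pulp macrophage markers, 6 were negative in Zeb2 Id2 DKO against WT, and Hpgd and Vcam1 were called lower (0.557% of all genes). The summed intensity of the 8 was 662 and 741 in Zeb2 Id2 DKO, 1019 and 1050 in Nfil3 Zeb2 DKO, 671 to 1182 in Zeb2 KO and 940 to 1341 in WT. The part of macrophage RNA in the Klra5 result was not tested.

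**Figure D4:**
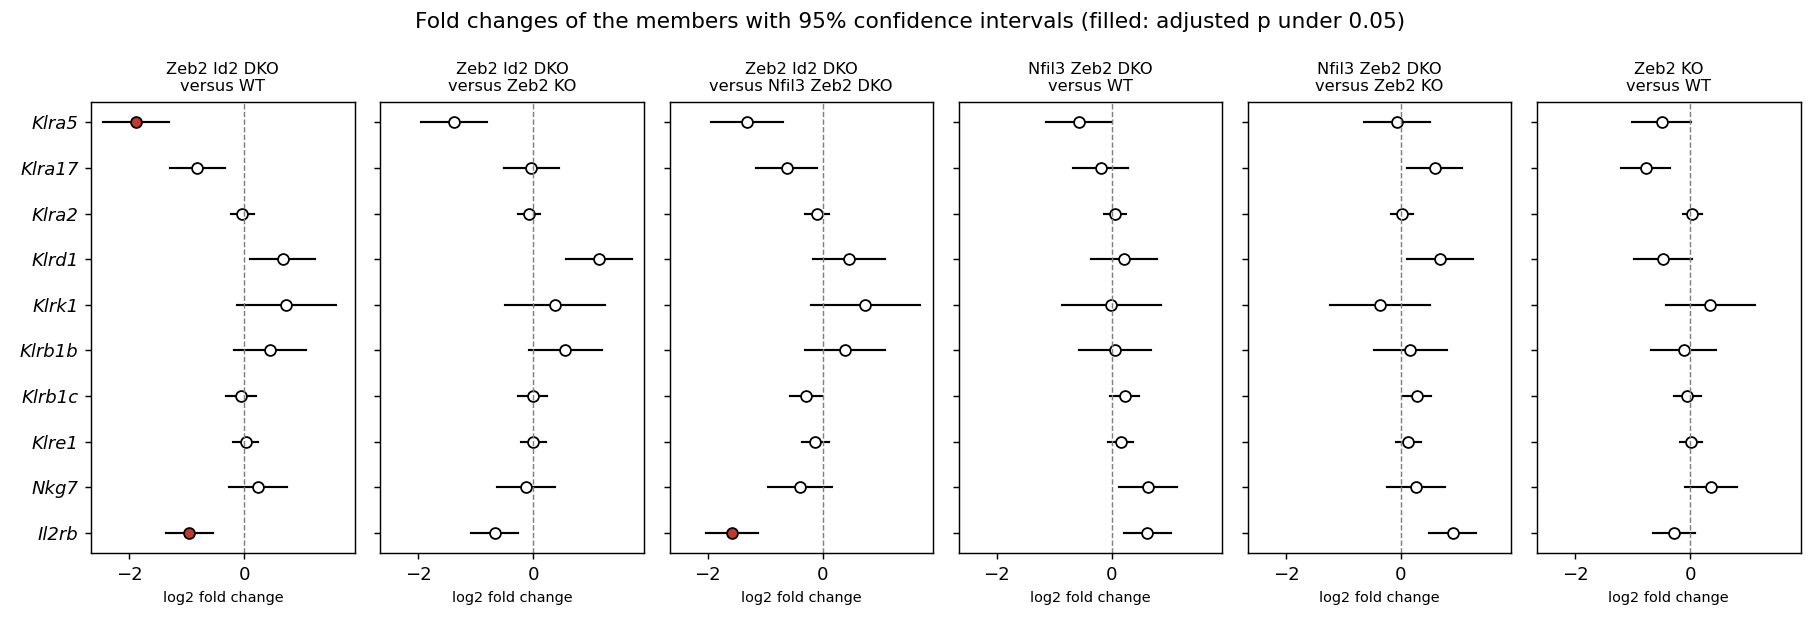
Log2 fold changes (horizontal axis, first genotype minus second) of the 10 genes in the 6 comparisons, with 95% confidence intervals as lines. Filled points have a limma adjusted p under 0.05, which only Klra5 and Il2rb in Zeb2 Id2 DKO against WT and Il2rb in Zeb2 Id2 DKO against Nfil3 Zeb2 DKO reach.

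Set against each other in Zeb2 Id2 DKO against WT, 5 of the 10 members had positive and 5 negative differences, and their median was 0.00 log2 against -0.01 over all genes. Outside Klra5 and Il2rb the differences ran from -0.81 to 0.73. The arrays of both genotypes did not overlap in 5 of the 10 members, as in 31.4% of all genes. They did not overlap in 7 of 10 in Zeb2 Id2 DKO against Nfil3 Zeb2 DKO (52.4% of all genes) and in 3 of 10 in Zeb2 Id2 DKO against Zeb2 KO (20.2%).

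Limma called 0 of the 10 members in the other 4 comparisons. The share of all genes called was 0.497% in Zeb2 Id2 DKO against Zeb2 KO, 0.00502% in Nfil3 Zeb2 DKO against Zeb2 KO, 0.00502% in Nfil3 Zeb2 DKO against WT and 0.0201% in Zeb2 KO against WT. At an unadjusted p under 0.05 there were 3 of 10 members in Zeb2 Id2 DKO against Zeb2 KO, beside 7.35% of all genes at that threshold. There were 4 in Nfil3 Zeb2 DKO against Zeb2 KO (8.5% of all genes), 2 in Nfil3 Zeb2 DKO against WT (4.16%) and 1 in Zeb2 KO against WT (7.39%). Arrays did not overlap in 4 of 10 members in Nfil3 Zeb2 DKO against Zeb2 KO (22.1% of all genes), in 4 of 10 in Nfil3 Zeb2 DKO against WT (23.8%) and in 1 of 10, Klra17, in Zeb2 KO against WT (10.4%).

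Of 15 measured adaptors and signalling molecules of these receptors, 1 was called higher and 0 were called lower with Zeb2 Id2 DKO set against WT (median log2 0.11 against -0.01 over all genes). Fcer1g, the Fc receptor gamma chain that also serves activating NK receptors, read 9.46 and 9.92 log2 in Zeb2 Id2 DKO against 8.61, 9.06 and 8.86 in WT (log2 0.85, adjusted p = 0.0269). Fcer1g was not called on leaving out Zeb2 Id2 DKO replicate 2 (adjusted p = 0.293), Nfil3 Zeb2 DKO replicate 1 or 2 (0.0537 each), or WT replicate 1 (0.0598) or 3 (0.0921). Tyrobp, which encodes DAP12, read 10.87 and 10.88 in Zeb2 Id2 DKO against 10.58, 10.79 and 10.88 in WT, and Hcst, which encodes DAP10, the partner of NKG2D, read 7.80 and 7.69 in Zeb2 Id2 DKO against 7.53, 7.66 and 7.72 in WT. In the other 5 comparisons limma called 0 of the 15, and 0 to 4 had an unadjusted p under 0.05.

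Limma called 0 genes in the lists of receptor ligands, of the IL-2 and IL-15 pathway, of cytotoxic effectors and of NK transcription factors in the 6 comparisons, where 0 to 6 genes of a list had an unadjusted p under 0.05. Between Zeb2 Id2 DKO and WT those were 2 of 6 ligand genes, 3 of 13 IL-2 and IL-15 pathway genes, 4 of 10 cytotoxic effectors and 3 of 9 NK transcription factors, beside 10.2% of all genes. Their median log2 differences were -0.03, -0.08, -0.25 and -0.37. Differences on the IL-2 and IL-15 pathway list ran from -0.99 to 0.12 log2, so Il15ra below was not its lowest gene. Il15ra, the chain that presents IL-15 to cells with CD122, read 7.70 and 7.45 log2 in Zeb2 Id2 DKO against 8.34, 7.74 and 7.97 in WT (log2 -0.44, adjusted p = 0.479). Clec2i, a Clr family gene, read 7.62 and 7.73 in Zeb2 Id2 DKO against 8.57, 8.28 and 8.30 in WT (log2 -0.71, adjusted p = 0.0758).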

How the data were processed

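Gene expression was measured in 10 samples of splenic cDC1s on Affymetrix arrays, with groups taken from the genotype labels. Per the labels, cDNA was amplified with the NuGen Ovation Pico system and biotinylated. The submitters' processing notes name Affymetrix Expression Console and RMA. The deposited intensity values (5.05 to 16019) are on a linear scale. Log2 of them was computed here without further normalization. Software versions are not given in the sources used here. Probe sets were named through the platform annotation: of 28853, 21789 named 1 gene, 1621 several and 5443 none. Of the 21789, 21698 matched the GRCm38.p6 gene table, which changed 0 symbols. The probe set with the highest mean stood for a gene (19938 genes), and no gene was filtered out. The number of arrays limits precision, and no 2 arrays were identical.

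Limma 3.58.1 in R 4.3.3 was fitted to all arrays (6 residual and 4.47 prior degrees of freedom), with 6 comparisons, and tested on simulated data. The genes named are the 10 members, list members called, and the 5 genes most correlated with Klra5 and with Il2rb, after removing sex-linked and predicted genes, antigen receptor segments, chemosensory receptors and small RNAs. A few values of genes outside that rule (Il15ra, Clec2i, Tyrobp, Hcst and markers) were chosen after they were seen. The members and lists were chosen with earlier results of these data known. Alternatives covered normalization, probe set summary, a filter, the arrays fitted, the replicate number as a block, variance moderation, an offset and each array left out.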

Additional observations from a re-analysis of the deposited data

How the results depend on the processing

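Klra5 stayed called in Zeb2 Id2 DKO against WT, and Il2rb in Zeb2 Id2 DKO against Nfil3 Zeb2 DKO, under all 7 settings other than a left-out array. Some of these settings were weak checks. The mean of probe sets could not change the log2 difference of either gene, as each has 1 probe set. The filter, the variance moderation and the fit of only the 2 genotypes left those differences unchanged as well. The replicate block did not change that of Il2rb either. For Il2rb only quantile normalization (log2 -1.58) and the offset (log2 -1.42) moved the difference. The number of members called in Zeb2 Id2 DKO against WT was 2, and 1 with the replicate number as a block or with the offset of 16. In Zeb2 Id2 DKO against Nfil3 Zeb2 DKO it was 1, and 3 (Klra5, Klrk1 and Il2rb) when only the arrays of the 2 genotypes were fitted, as in Zeb2 Id2 DKO against WT. With 1 array left out the number ran from 0 to 3 in Zeb2 Id2 DKO against WT, 0 to 3 against Nfil3 Zeb2 DKO and 0 to 1 against Zeb2 KO, and from 0 to 1 in Nfil3 Zeb2 DKO against Zeb2 KO and in Zeb2 KO against WT. Without Zeb2 KO replicate 3 the counts were the highest in 4 of these 5 comparisons, all but Zeb2 Id2 DKO against Zeb2 KO. Over all genes, 286 were called in Zeb2 Id2 DKO against WT (554 from the arrays of both genotypes alone, 183 with the replicate block, 67 to 760 with an array left out) and 99 against Zeb2 KO (20 alone, 25 to 148 with an array left out). In Zeb2 Id2 DKO against Nfil3 Zeb2 DKO 158 were called (833 alone, 23 to 704 left out), in Nfil3 Zeb2 DKO against WT 1 (2 alone, 1 to 7 left out), in Nfil3 Zeb2 DKO against Zeb2 KO 1 (1 to 106 left out) and in Zeb2 KO against WT 4 (1 alone, 8 with the block, 0 with the offset, 0 to 165 left out). The cause was not tested. The log2 difference of Klra5 in Nfil3 Zeb2 DKO against Zeb2 KO, -0.07, changed sign with an array left out (-0.30 to 0.12). Replicate numbers did not pair the samples: deviations of same-numbered arrays correlated above 0.1 in 1 of 13 pairs (-0.31 to 0.16), and with that block Il2rb was no longer called against WT (log2 -0.84, adjusted p = 0.0546), nor were Klra3 (log2 -0.74, 0.0703), Klri1 (log2 -0.99, 0.0760) and Fcer1g (log2 0.86, 0.0599). The same settings for list genes and shared probe sets were added after seeing the data. Dim probe sets limit what can be seen: 4 of the 10 members averaged under 6 log2, and the filter removed them.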
